A study of Mus musculus with 12 samples.

Results

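Irx1, Irx2, Pou3f4, Ttr, Gc, Hhex, Fev and Slc38a5 are 8 genes by which alpha and delta cells of the pancreatic islet are told from β-cells. They were taken as the rows of the deposited count table whose Ensembl identifiers carried these symbols, 8 of 52962 genes in all, and all 8 passed the filter on low counts. RNA was sequenced from a β-cell and a non-β-cell fraction, separated by endogenous fluorescence with CD45-positive cells gated out, from islets cultured overnight after isolation from female NOD mice, an inbred strain that develops autoimmune diabetes. The 12 samples formed 4 groups of 3, namely β-cells and non-β-cells at 4 weeks and at 8 weeks of age, and no group carried a transgene, deletion or drug treatment. The study describes each replicate as a pool of mice, and all groups came from NOD mice, so neither a change of age in a strain without autoimmunity nor the spread between single animals was measured here. The comparisons asked how these genes stood in the β and the non-β fraction, and whether they moved between an early and a later stage of islet infiltration.

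Alpha cells secrete glucagon, encoded by Gcg, and delta cells secrete somatostatin, encoded by Sst, which acts on both neighbouring cell types. Islet endocrine cells share a set of transcription factors, and further factors that only some of them use keep each cell type apart. Irx1 and Irx2 are Iroquois homeodomain factors of alpha cells, and Pou3f4, also known as Brn4, is a POU homeodomain factor that activates the glucagon gene. Ttr encodes transthyretin, a carrier of thyroxine and of the retinol-binding protein, and Gc encodes the vitamin D binding protein; both are secreted by the liver and are abundant in alpha cells. Slc38a5 is a sodium-coupled transporter of glutamine and other neutral amino acids that is found in alpha cells. Hhex is a homeodomain factor that adult delta cells need, and Fev is an ETS factor known from serotonin neurons and from endocrine progenitors.

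Irx1 (ENSMUSG00000060969, chr13:71957921-71963723, minus strand) and Irx2 (ENSMUSG00000001504, chr13:72628820-72634198, plus strand) are neighbours in the Iroquois cluster, with 665 kb between the ends of the genes in the GRCm38 annotation. Pou3f4 (ENSMUSG00000056854, chrX:110814280-110817207, plus strand) and Slc38a5 (ENSMUSG00000031170, chrX:8271133-8280179, plus strand) are both X-linked. Gc (ENSMUSG00000035540) spans chr5:89417522-89457898 on the minus strand, and the identifier of Ttr is ENSMUSG00000061808. Hhex (ENSMUSG00000024986) spans chr19:37434810-37440731 on the plus strand, and Fev (ENSMUSG00000055197) spans chr1:74881509-74885419 on the minus strand. All 8 are protein-coding, and none overlaps another annotated gene. Of the 31-base words in their transcripts, between 0% and 1.24% also occur in transcripts of another gene, with 35 of 3305 words of Irx2 shared with Irx5, so few reads of Irx1 or Irx2 could be given to another family member.

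The promoters of Irx2, Gc and Fev are shown because these genes stood for 3 patterns of age calls described below. For none of these 3 genes was the age change shown to differ between the fractions. Of them, Irx2 was lower at 8 weeks in both fractions, Gc passed the threshold only in β-cells and Fev only in non-β-cells, and all were lower in β-cells at both ages. The bases are from RefSeq on GRCm38.p6 and end just before the first annotated base of the gene, which excludes all transcribed sequence. The RefSeq table held windows for 6 of the 8 genes, and Irx1 and Ttr had no entry. Capitals mark a match to 1 of the motifs searched.
Irx2 (chr13:72628570-72628819, plus strand): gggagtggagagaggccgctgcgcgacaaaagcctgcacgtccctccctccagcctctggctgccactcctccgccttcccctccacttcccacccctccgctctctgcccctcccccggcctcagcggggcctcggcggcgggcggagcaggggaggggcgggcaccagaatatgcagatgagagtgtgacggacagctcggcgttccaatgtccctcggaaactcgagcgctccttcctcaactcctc
Gc (chr5:89457899-89458148, minus strand): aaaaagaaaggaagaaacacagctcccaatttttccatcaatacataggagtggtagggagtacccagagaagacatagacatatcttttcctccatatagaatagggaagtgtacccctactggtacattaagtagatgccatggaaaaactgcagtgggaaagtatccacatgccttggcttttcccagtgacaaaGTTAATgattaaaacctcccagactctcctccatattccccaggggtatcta
Fev (chr1:74885420-74885658, minus strand): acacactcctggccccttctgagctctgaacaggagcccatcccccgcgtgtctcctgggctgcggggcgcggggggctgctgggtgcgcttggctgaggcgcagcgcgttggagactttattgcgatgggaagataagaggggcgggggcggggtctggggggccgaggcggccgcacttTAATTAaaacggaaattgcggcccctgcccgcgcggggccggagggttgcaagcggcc
The promoters differed in base composition, with a GC content of 68.4% for Irx2, 42% for Gc and 68.6% for Fev. Searched on both strands were TAATTA for homeodomain factors, TGTTTAC for forkhead factors and, chosen after the windows had been seen, GTTAAT for HNF1 factors. Fev held TAATTA at 58 bases before its start, Gc held GTTAAT at 52 bases before its start, and the window of Irx2 held none of the 3. Of 32851 promoter windows of 250 bases, 4.84% held TAATTA, 3.17% TGTTTAC and 6.43% GTTAAT. A match is a description of the letters and not a measured binding site.

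Libraries held between 13755106 and 27040652 estimated counts. The fractions matched their labels, with all 8 genes of a β-cell list (Ins1, Ins2, Pdx1, Nkx6-1, Mafa, Ucn3, Slc2a2, Iapp) higher in β-cells at both ages and a summed level of 46322 to 112521 CPM (counts per library size after TMM scaling) in β samples against 2877 to 5840.0 CPM in non-β samples. The pan-leukocyte gene Ptprc, which encodes CD45, stayed at or below 0.789 CPM in every sample. The sum of 8 leukocyte markers, mostly Cd68, was nevertheless higher in β samples (50.9 to 77.4 CPM) than in non-β samples (7.68 to 19.8 CPM). The 2 markers that passed the filter, the lysosomal gene Cd68 and the B cell gene Cd79a, were 5.37-fold and 13.5-fold higher in β-cells at 4 weeks (adjusted p = 1.74e-07 and 0.00383) and were again higher at 8 weeks (4.36-fold and 5.14-fold). Both 4-week samples numbered 3 stood apart from the others of their age. The β sample had a β-cell sum of 81304 CPM against 51108 and 46322 CPM, and a delta cell sum of 889 CPM against 400.1 and 433 CPM. The non-β sample had a delta cell sum of 8059.8 CPM against 5344 and 5364 CPM. Results without these 2 libraries are therefore also given for Ttr, Gc and Hhex in β-cells, and where a call or sign of the 8 genes changed. RNA was measured in bulk, so fewer cells of a type and less RNA per cell of that type cannot be told apart, and neither can alpha and delta cells within the non-β fraction.

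All 8 genes were far lower in the β than in the non-β fraction at both ages, as the plot of levels in each sample shows. At 4 weeks the median log2 difference of the 8 was -3.64, against -0.00 over all 15598 genes tested, and at 8 weeks it was -4.32 against 0.01. The background was broad, since 48.5% of tested genes differed between the fractions at 4 weeks (23.7% lower and 24.9% higher in β-cells) and 49.2% at 8 weeks (25.6% lower and 23.6% higher in β-cells). Of the 8, Irx1 had the largest difference at 4 weeks (log2 -4.54, SE 0.20, adjusted p = 2.26e-09) and Gc the smallest (log2 -2.51, SE 0.14, adjusted p = 1.58e-08). At 8 weeks Pou3f4 was the most unequal (log2 -6.38, SE 0.63, adjusted p = 3.07e-06) and Fev the least (log2 -2.42, SE 0.20, adjusted p = 5.4e-07). The β and the non-β samples did not overlap for any of the 8 at either age; over all tested genes this held for 53.1% at 4 weeks (26.7% lower and 26.5% higher in β-cells) and for 64.9% at 8 weeks (32.4% lower and 32.5% higher).

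**Figure D1:**
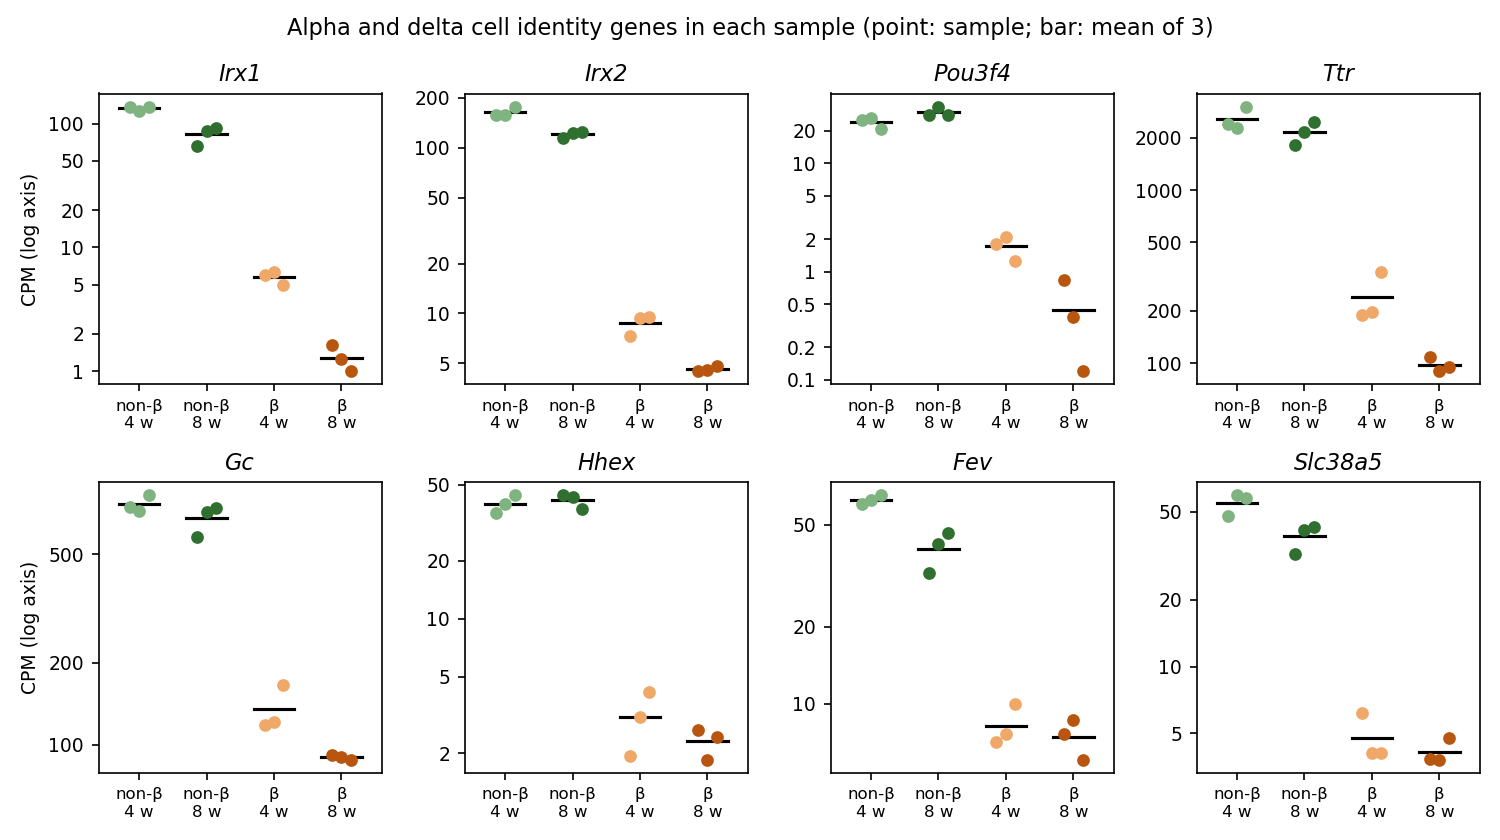
TMM-scaled CPM (log axis, a scale of its own in each panel) of the 8 genes in the 12 samples; each point is 1 sample and each bar the mean of 3. In every panel the 6 β samples lie below the 6 non-β samples, and the 2 ages of β-cells lie apart for Irx1, Irx2, Pou3f4, Ttr and Gc.

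Per kilobase of exon, the order of levels was much alike in both fractions at its top. In non-β-cells at 4 weeks, Ttr had 2166 ± 339.8 CPM per kb and Gc 413 ± 29.5 CPM per kb (SD, n = 3, as for all values after ±). Irx1 and Irx2 followed with 51.1 ± 2.14 and 50.1 ± 3.37 CPM per kb, which overlapped. Fev had 38.6 ± 1.61, Slc38a5 24.5 ± 2.77, and Pou3f4 and Hhex, which overlapped, 8.20 ± 1.02 and 7.86 ± 0.846 CPM per kb. The secreted proteins thus stood above the transporter and the transcription factors. At 8 weeks Irx2, Irx1 and Fev, at 36.7 ± 1.62, 31.3 ± 5.33 and 25.0 ± 4.42 CPM per kb, lay closer together, with Irx1 overlapping both of the others and Irx2 above Fev without overlap. In β-cells at 8 weeks Ttr still led with 82.4 ± 7.79 CPM per kb, followed by Gc with 48.7 ± 0.898, Fev with 4.61 ± 0.813 and Slc38a5 with 1.85 ± 0.245 CPM per kb. Irx2 came next with 1.41 ± 0.0523 CPM per kb, and Irx1, Hhex and Pou3f4 closed the order with 0.492 ± 0.118, 0.454 ± 0.0803 and 0.151 ± 0.123 CPM per kb, of which Irx1 and Hhex overlapped. Fev and Slc38a5 thus ranked above both Iroquois genes in β-cells at 8 weeks and below Irx2 in non-β-cells.

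In proportion to the non-β level, what was read in the β fraction ranged widely among the 8. At 4 weeks the β mean was 4.28% ± 0.553 of the non-β mean for Irx1, 5.33% ± 0.833 for Irx2 and 7.11% ± 2.02 for Pou3f4, with the SD carried over from the spread of the 3 β and the 3 non-β samples. It was 9.36% ± 3.52 for Ttr, 7.72% ± 2.94 for Hhex, 8.68% ± 2.39 for Slc38a5, 13.2% ± 2.59 for Fev and 17.7% ± 3.71 for Gc. Gcg itself stood at 6.36% ± 1.80 and Sst at 9.35% ± 5.23. At 4 weeks the 8 genes thus lay between 0.674 and 2.78 times the Gcg percentage.

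At 8 weeks they were spread further. Gcg stood at 1.62% ± 0.452, and Irx1 (1.57% ± 0.464) lay close to it, at 0.972 times its percentage. Pou3f4 stood at 1.49% ± 1.22, or 0.920 times that of Gcg, but at 0.835% and 0.582 times without the 8-week β sample numbered 1, so its place beside Gcg rested on that library. Irx2 (3.84% ± 0.222), Ttr (4.54% ± 0.815) and Hhex (5.54% ± 1.09) lay at 2.37, 2.81 and 3.42 times that of Gcg. Slc38a5 (10.7% ± 2.10), Gc (13.3% ± 1.73) and Fev (18.5% ± 4.62) lay at 6.60, 8.20 and 11.4 times that of Gcg. Sst had 8.34% ± 1.62 at this age. The share of β-cells themselves and of other cells in these β-fraction reads was not tested.

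**Figure D2:**
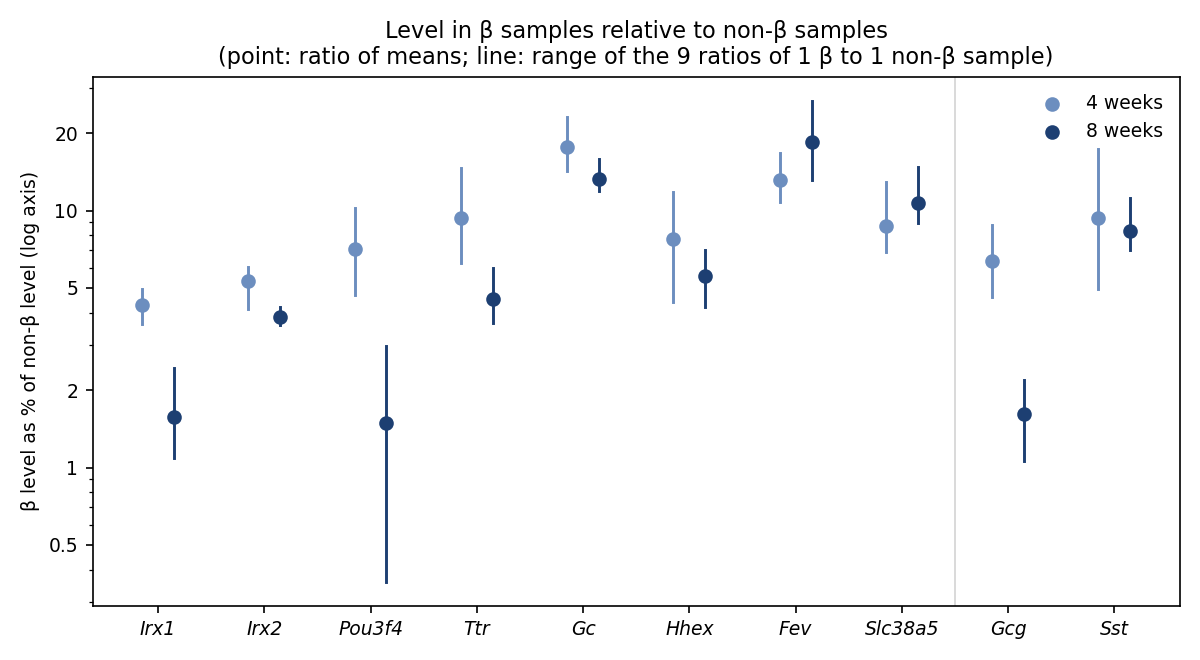
Mean CPM in β samples as a percentage of the mean in non-β samples (log axis) at 4 and 8 weeks; points are ratios of group means and lines span the 9 ratios of a single β to a single non-β sample. Irx1 and Pou3f4 lie beside Gcg at 8 weeks (1.57% and 1.49% against 1.62%), while Gc, Fev and Slc38a5 lie at 10.7% or more at that age.

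With age, 4 of the 8 genes were lower at 8 than at 4 weeks in non-β-cells (Irx1, Irx2, Fev, Slc38a5) and none was higher. Of all tested genes, 16.4% passed the threshold in this comparison, 4.8% as lower and 11.6% as higher. In β-cells 5 of the 8 were lower (Irx1, Irx2, Pou3f4, Ttr, Gc) and none was higher, against 17.9% of all tested genes past the threshold, 9.35% as lower and 8.59% as higher. The median log2 change of the 8 was -0.35 in non-β-cells and -0.74 in β-cells, beside 0.01 and 0.02 over all genes tested. Hhex alone passed the threshold in neither fraction. limma-voom gave all changes, SEs, intervals and adjusted p-values here.

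Irx1, the alpha cell Iroquois factor, had 137, 127 and 137 CPM in the 3 non-β samples at 4 weeks and 66.0, 87.8 and 92.0 CPM at 8 weeks. In β samples it had 5.95, 6.30 and 4.95 CPM at 4 weeks and 1.62, 1.24 and 1.00 CPM at 8 weeks, the latter from 25 to 35 counts a library. The ages did not overlap in either fraction, which held for 32.8% of tested genes in non-β-cells (13.8% lower at 8 weeks) and for 40.3% in β-cells (19.6% lower). Irx1 fell to 0.603 of its 4-week level in non-β-cells (log2 -0.73, SE 0.12, adjusted p = 0.00098) and to 0.221 in β-cells (log2 -2.18, SE 0.41, adjusted p = 0.00295). Both calls held in all 23 alternative analyses.

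Irx2, its neighbour on chromosome 13, whose promoter is printed above, had 158, 158 and 177 CPM in non-β samples at 4 weeks and 114, 122 and 125 CPM at 8 weeks. In β samples it had 7.33, 9.39 and 9.54 CPM at 4 weeks and 4.49, 4.56 and 4.81 CPM at 8 weeks. The ages were again apart in both fractions, and the 3 β samples at 8 weeks were close together. Irx2 fell by 0.45 on the log2 scale in non-β-cells (SE 0.09, adjusted p = 0.00468) and by 0.92 in β-cells (SE 0.19, adjusted p = 0.00554). The count of Irx1 per count of Irx2 was 0.866, 0.809 and 0.774 in non-β samples at 4 weeks and 0.577, 0.720 and 0.738 at 8 weeks. In β samples this ratio was 0.812, 0.671 and 0.519 at 4 weeks and 0.361, 0.273 and 0.208 at 8 weeks. In both fractions, Irx1 was thus lower relative to Irx2 in every 8-week sample than in any 4-week sample. The gap was narrow in non-β-cells (0.774 against 0.738), and the 8-week β ratios rested on 25 to 35 counts of Irx1. How often the ratio of other gene pairs parts the ages in this way was not counted.

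The other Iroquois genes were at or close to 0. Irx4, Irx5 and Irx6 did not pass the filter, and no sample had more than 0.257 CPM of any of them. Irx3 passed the filter and had 0.181 ± 0.233 CPM in 4-week and 1.88 ± 0.841 CPM in 8-week non-β samples (adjusted p = 0.0265), with 1 or more 4-week libraries at 0 counts. This call was lost in 7 of 19 alternatives (adjusted p up to 0.182), so of the Iroquois genes Irx1 and Irx2 carried the age change that held.

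Pou3f4, the POU factor of alpha cells, did not fall with age in non-β-cells. Its level there was 25.0, 26.4 and 20.7 CPM at 4 weeks and 28.0, 33.5 and 27.9 CPM at 8 weeks. The 8-week samples were all above the 4-week ones, which 19% of tested genes also showed, but the difference did not pass the threshold (log2 0.30, 95% interval -0.02 to 0.61, adjusted p = 0.203). In β samples it had 1.78, 2.10 and 1.24 CPM at 4 weeks and 0.833, 0.377 and 0.120 CPM at 8 weeks, from 18, 10 and 3 counts. Pou3f4 fell in β-cells (log2 -2.28, SE 0.70, adjusted p = 0.0393), with an interval from -3.79 to -0.77. That call rested on few counts and was lost in 8 of 23 alternatives, among them the omission of the 4-week β sample numbered 1 or 2, of any 8-week β sample, or of the 8-week non-β sample numbered 3 (adjusted p up to 0.143). Its relative Pou3f1, the only other POU class III gene past the filter, had 2.02 ± 0.823 CPM in non-β samples at 4 weeks and 3.16 ± 0.644 CPM at 8 weeks, and 0.315 ± 0.196 and 0.203 ± 0.0540 CPM in β-cells. Pou3f1 was lower in β-cells at both ages, like Pou3f4, and passed the threshold with age in neither fraction.

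Ttr, the transthyretin gene (chr18:20665280-20674321, plus strand), was the most abundant of the 8. It had 2399.8, 2277 and 3029 CPM in non-β samples at 4 weeks and 1813, 2175 and 2469 CPM at 8 weeks. These overlapped, and the difference did not pass (log2 -0.25, 95% interval -0.69 to 0.18, adjusted p = 0.461). In β samples it had 189.9, 196 and 335 CPM at 4 weeks and 108, 89.9 and 95.5 CPM at 8 weeks. The highest value was that of the 4-week sample numbered 3, and the lowest 4-week sample still lay above the highest 8-week one. Ttr fell to 0.42 of its 4-week level in β-cells (log2 -1.25, SE 0.20, adjusted p = 0.000975), and by 0.99 on the log2 scale without both 4-week samples numbered 3 (adjusted p = 0.000118).

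Gc, the vitamin D binding protein gene, showed the same order of groups with smaller differences. It had 745, 717 and 822 CPM in non-β samples at 4 weeks and 577, 715 and 739 CPM at 8 weeks, which overlapped (log2 -0.17, 95% interval -0.47 to 0.12, adjusted p = 0.447). In β samples it had 118, 121 and 165 CPM at 4 weeks and 91.5, 89.9 and 88.2 CPM at 8 weeks. The β samples of the 2 ages were apart, with the 3 older ones within 4 CPM of each other. Gc fell in β-cells to 0.675 of its 4-week level (log2 -0.57, SE 0.14, adjusted p = 0.0127). Without both 4-week samples numbered 3 the log2 change was -0.41 (adjusted p = 0.0137). At 4 weeks its β level was nearer to its non-β level than that of any of the other 7 genes.

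Genes that handle the cargo of Ttr and Gc were counted as a list of 6 (Rbp4, Vdr, Rxra, Stra6, Cubn, Lrp2), of which 4 passed the filter. None passed the threshold with age in non-β-cells. In β-cells the vitamin D receptor gene Vdr rose from 81.9 ± 14.9 to 138 ± 6.49 CPM (log2 0.77, SE 0.14, adjusted p = 0.00257). The retinol-binding protein gene Rbp4 fell there from 69.4 ± 25.1 to 40.8 ± 4.98 CPM (log2 -0.72, SE 0.23, adjusted p = 0.0476, lost in 9 of 23 alternatives), and Stra6, a receptor for that protein, fell from 3.61 ± 1.21 to 0.566 ± 0.318 CPM (log2 -2.78, SE 0.67, adjusted p = 0.013).

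As Ttr and Gc are also liver genes, 6 hepatocyte markers were read beside them. Ahsg was at 0 in 3 of the 4 groups, and Alb, the defining transcript, had 2.54 ± 1.60 and 2.30 ± 1.09 CPM in non-β samples at 4 and 8 weeks and 0.874 ± 0.0856 and 0.407 ± 0.171 CPM in β-cells. The summed level of the 6 was 29.9 to 49.3 CPM and 143 to 179 CPM in non-β samples at 4 and 8 weeks, and 4.07 to 5.41 CPM and 25.3 to 41.4 CPM in β samples. Most of the sum was Fgb, a fibrinogen chain gene, which rose with age in both fractions while Ttr and Gc did not.

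Slc38a5, the glutamine transporter gene, had 47.9, 59.4 and 57.7 CPM in non-β samples at 4 weeks and 32.3, 41.5 and 42.5 CPM at 8 weeks. The ages did not overlap, and Slc38a5 fell to 0.699 of its 4-week level (log2 -0.52, SE 0.14, adjusted p = 0.02). This call was lost in 7 of 23 alternatives, including edgeR (adjusted p = 0.0735) and DESeq2 (adjusted p = 0.0527), and with 1 non-β sample left out, either the 4-week sample numbered 2 (adjusted p = 0.0614) or 3 (adjusted p = 0.0566) or the 8-week sample numbered 1 (adjusted p = 0.1). In β samples Slc38a5 had 6.16, 4.08 and 4.08 CPM at 4 weeks and 3.84, 3.81 and 4.77 CPM at 8 weeks. These overlapped, with a log2 difference of -0.16 and a wide interval from -0.79 to 0.47 (adjusted p = 0.743).

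Of 9 other transporter genes of the Slc38 family, 7 passed the filter. In non-β-cells Slc38a7, a lysosomal member, fell from 78.1 ± 4.23 to 42.1 ± 1.81 CPM (log2 -0.89, SE 0.11, adjusted p = 9.73e-05), and the other 6 did not pass. In β-cells Slc38a7 (log2 -0.62, SE 0.10, adjusted p = 0.00107) and Slc38a2 (log2 -0.81, SE 0.20, adjusted p = 0.0138) fell and Slc38a6 rose (log2 0.96, SE 0.26, adjusted p = 0.0232). Their log2 differences between β and non-β samples at 4 weeks ran from -2.40 for Slc38a1 to 0.78 for Slc38a7, beside -3.56 for Slc38a5. Slc38a4, for instance, had 269 ± 36.1 CPM in non-β samples and 234 ± 39.3 CPM in β samples at that age.

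Hhex, the delta cell factor, had 35.4, 39.8 and 44.0 CPM in non-β samples at 4 weeks and 43.9, 43.0 and 37.5 CPM at 8 weeks. The 2 ages covered almost the same range, and the log2 difference was 0.07 with an interval from -0.22 to 0.35 (adjusted p = 0.792). Sst, the delta cell hormone gene, rose over the same samples from 5287 ± 1377 to 9670.3 ± 1811 CPM (log2 0.88, SE 0.28, adjusted p = 0.0466), a call that was lost in 10 of 22 alternatives. Per 1000 counts of Sst, Hhex had 7.93, 8.80 and 6.39 counts in these samples at 4 weeks and 5.79, 4.08 and 3.44 at 8 weeks. Every 8-week ratio of Hhex lay below every 4-week one, with Hhex itself level and Sst, the divisor, higher at 8 weeks. How often this held over all tested genes was not counted. In β samples Hhex had 1.93, 3.09 and 4.17 CPM at 4 weeks and 2.64, 1.85 and 2.41 CPM at 8 weeks, from 38 to 91 counts a library. The highest value again came from the 4-week sample numbered 3, the ages overlapped, and the interval of the difference ran from -1.17 to 0.37 (adjusted p = 0.475). The log2 difference was -0.40 with all samples and -0.17 without both 4-week samples numbered 3 (adjusted p = 0.798).

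Fev, the ETS factor gene whose promoter is printed above, had 60.1, 62.2 and 65.2 CPM in non-β samples at 4 weeks and 32.5, 42.2 and 46.4 CPM at 8 weeks. All 3 older samples lay below all younger ones, and Fev fell to 0.635 of its 4-week level (log2 -0.66, SE 0.14, adjusted p = 0.00583), a call that held in all 23 alternatives. In β samples it had 7.07, 7.61 and 10.0 CPM at 4 weeks and 7.63, 8.67 and 6.06 CPM at 8 weeks. These overlapped, with a log2 difference of -0.14 and an interval from -0.65 to 0.36 (adjusted p = 0.717).

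As Fev is known from serotonin neurons, 8 genes of serotonin synthesis, transport and regulation, in neurons or in other cells, were read beside it, of which 5 passed the filter. In non-β-cells Tph2, Ddc and Gata2 were higher at 8 weeks and none was lower. Tph2 and Gata2 started near 0 there, with 0 to 2 and 1 to 6 counts a library at 4 weeks. At 8 weeks they had 2.22 ± 1.02 and 7.24 ± 5.09 CPM. Ddc, which encodes the decarboxylase of serotonin and dopamine synthesis, rose from 38.3 ± 1.48 to 61.5 ± 2.99 CPM in non-β-cells (log2 0.68, SE 0.14, adjusted p = 0.00361) and from 74.4 ± 14.5 to 122 ± 7.23 CPM in β-cells (log2 0.73, SE 0.12, adjusted p = 0.00157). Lmx1b, a LIM homeodomain factor of serotonin neurons, had 19.5 ± 2.11 and 21.0 ± 1.42 CPM in non-β-cells and passed the threshold with age in neither fraction. In β-cells Slc18a1, the vesicular monoamine transporter of endocrine cells, fell (log2 -0.68, SE 0.16, adjusted p = 0.00998).

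**Figure D3:**
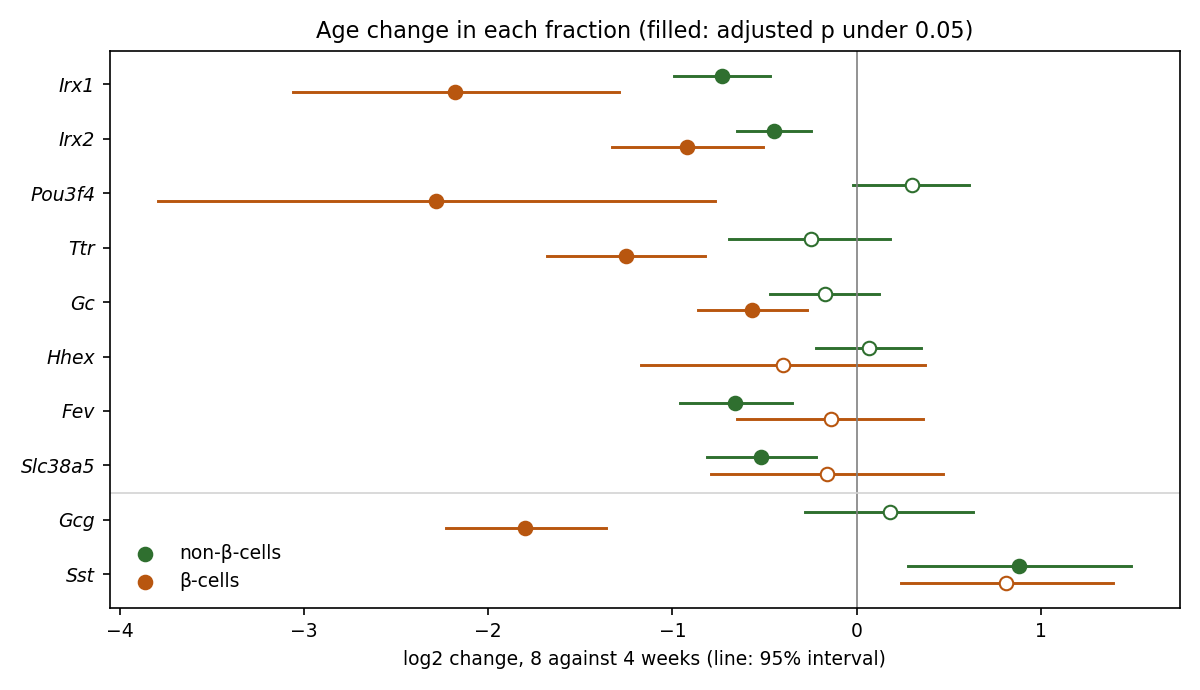
Log2 change from 4 to 8 weeks of the 8 genes, and of Gcg and Sst for comparison, with 95% intervals from limma-voom; filled points passed an adjusted p of 0.05. In non-β-cells (green) Irx1, Irx2, Fev and Slc38a5 lie below 0, and in β-cells (orange) Irx1, Irx2, Pou3f4, Ttr and Gc do, as does Gcg at -1.80.

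Whether the age change itself differed between the fractions was tested as an interaction. In the main limma-voom fit 0 of the 8 passed, against 5.13% of all tested genes (3.33% more negative and 1.8% more positive in β-cells). At an unadjusted p under 0.05 there were 4 of the 8 (Irx1, Irx2, Pou3f4 and Ttr), against 19.2% of all genes. Pou3f4 was at -2.57 (SE 0.72, adjusted p = 0.0577) and Irx1 at -1.45 (SE 0.43, adjusted p = 0.0746) on the log2 scale, and for Ttr the age ratio in β-cells was 0.501 of that in non-β-cells (adjusted p = 0.0641). The count depended on the tool, since edgeR called 2 of the 8 (Irx1, adjusted p = 0.00434, and Pou3f4, adjusted p = 0.0185) and DESeq2 called 3 (Irx1, adjusted p = 5.21e-06, Pou3f4, adjusted p = 1.91e-05, and Ttr, adjusted p = 0.00577). Without both 4-week samples numbered 3, limma-voom called 2, Pou3f4 (adjusted p = 0.0314) and Ttr (adjusted p = 0.00559). For Fev and Slc38a5, which passed with age only in non-β-cells, the interaction was 0.51 (95% interval -0.08 to 1.10) and 0.35 (-0.34 to 1.05). For Gc, which passed only in β-cells, it was -0.51 to -0.24 over 22 alternative analyses and passed in 0 of them. These data thus do not show that the age changes of Fev, Slc38a5 and Gc differed between the fractions.

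Relative to the glucagon transcript within the same library, the 8 genes parted into 2 groups in non-β-cells. Per 1000 counts of Gcg, Irx1 had 1.33, 1.20 and 1.17 counts at 4 weeks and 0.595, 0.702 and 0.693 at 8 weeks, a mean of 53.6% of the earlier ratio. Irx2 had 1.54, 1.49 and 1.52 counts at 4 weeks and 1.03, 0.975 and 0.940 at 8 weeks, or 64.8%. Fev stood at 56.7%, Slc38a5 at 62.0%, Ttr at 74.0% and Gc at 78.4% of their 4-week ratios, and for these 6 genes the ages did not overlap. Pou3f4 (109%) and Hhex (93.3%) overlapped between ages. The ratio of Hhex to Sst was lower at 8 weeks, as given above, with Sst higher and Hhex level. Over all other tested genes, the ratio to Gcg was lower in every 8-week sample for 24.7% and higher for 13%. Gcg had 108569 ± 7341 CPM at 4 weeks and 122897 ± 11029 CPM at 8 weeks in these samples and did not pass the threshold (log2 0.18, 95% interval -0.28 to 0.63, adjusted p = 0.646).

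**Figure D4:**
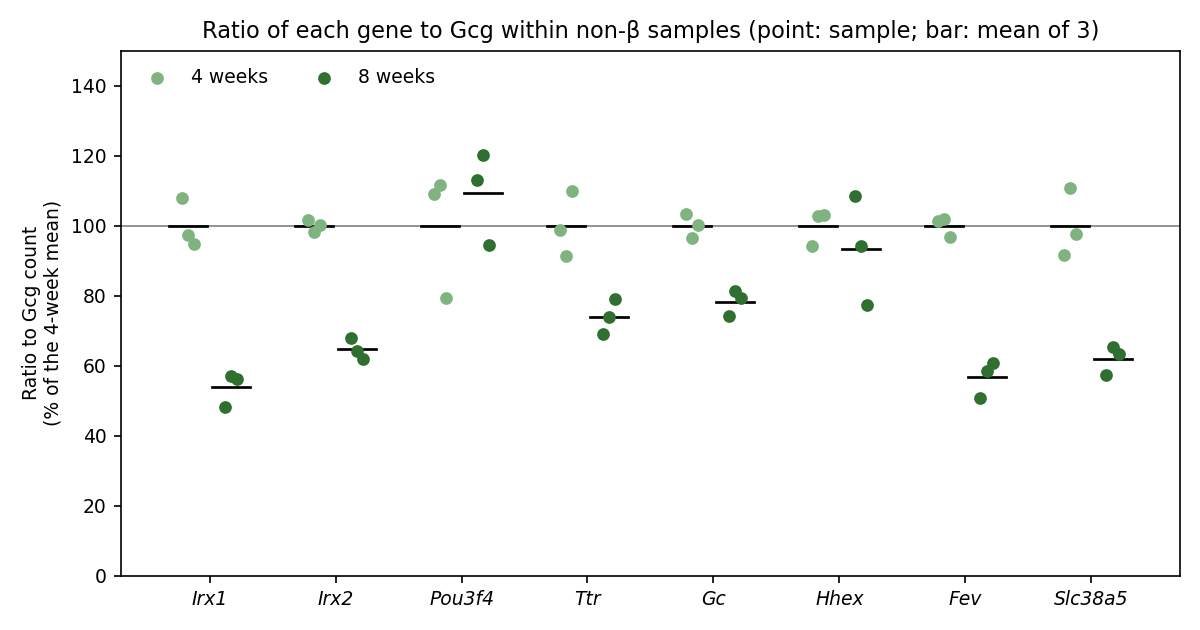
Counts of each gene per count of Gcg in the 6 non-β samples, as a percentage of the 4-week mean; points are samples and bars are means of 3. Irx1, Irx2, Ttr, Gc, Fev and Slc38a5 have all 8-week points below all 4-week points, with means between 53.6% and 78.4%, while Pou3f4 and Hhex overlap.

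In β-cells the same ratios were higher at 8 weeks for 6 of the 8. Gcg fell there from 6904 ± 1899 to 1989 ± 526 CPM (log2 -1.80, SE 0.20, adjusted p = 7.36e-05). Irx2 stood at 188% of its 4-week ratio, Ttr at 148%, Gc at 240.4%, Hhex at 268%, Slc38a5 at 291% and Fev at 334%, each without overlap between ages. Irx1 (76.0%) and Pou3f4 (82.9%) overlapped between ages. The ratio to Gcg was higher in every 8-week β sample for 90.1% of all other tested genes and lower for 0.147%, so the 6 genes were like most genes in this and Irx1 and Pou3f4 were among the few that were not.

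Other genes of the 2 cell types were read from lists of 9 alpha cell and 7 delta cell genes. At 4 weeks 8 of the 9 alpha cell genes and 6 of the 7 delta cell genes were lower in β-cells, and at 8 weeks 8 of 9 and 7 of 7 were. With age none of the 9 alpha cell genes passed in non-β-cells (median log2 change -0.03), and 3, Gcg among them, were lower in β-cells (median -0.61), where the call of Gcg held in all 22 alternatives run for it. Of the 7 delta cell genes, Sst, Lepr and F5 were higher in non-β-cells at 8 weeks (median 0.31). In β-cells F5 was higher and Rbp4 lower (median 0.11). The call of Lepr was lost in 9 of 19 alternatives and that of F5 in β-cells in 7 of 23, but that of F5 in non-β-cells in none. Ppy, the pancreatic polypeptide gene, fell from 227 ± 122 to 63.6 ± 5.61 CPM in β-cells (log2 -1.72, SE 0.27, adjusted p = 0.000831).

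Transcription factors that islet cell types share were read beside the 5 factors among the 8 genes. Of 12 shared factors, Neurod1, Nkx2-2 and Insm1 fell and Foxa1 rose in non-β-cells (median log2 change 0.05), with Neurod1 losing its call in 8 and Foxa1 in 1 of 23 alternatives. Nkx2-2, a homeodomain factor, fell there from 224 ± 7.70 to 140.5 ± 13.0 CPM (log2 -0.67, SE 0.09, adjusted p = 0.000248), and Insm1 fell from 249 ± 13.2 to 173 ± 6.61 CPM (log2 -0.53, SE 0.09, adjusted p = 0.000919). In β-cells Pax6, Neurod1, Isl1, St18 and Meis2 rose and Nkx2-2 fell (median 0.42), a fall that lost its call in 3 of 23 alternatives (adjusted p up to 0.0904). Pax6, which also acts on the glucagon gene, rose in β-cells from 179 ± 18.7 to 326 ± 11.5 CPM (log2 0.87, SE 0.10, adjusted p = 7.01e-05) and had 353 ± 23.2 and 364 ± 4.80 CPM in non-β-cells.

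Transcripts of other cell types rose in the same non-β samples in which Irx1, Irx2, Fev and Slc38a5 fell. All 6 endothelial markers were higher at 8 weeks, and their sum was 33.8 to 70.6 CPM at 4 weeks and 284 to 814 CPM at 8 weeks. All 6 mesenchymal markers were higher, with sums of 77.8 to 247 CPM and 531 to 821 CPM. Of 6 duct markers 4 were higher (613 to 799.6 CPM, then 1918 to 2143 CPM), and of 8 acinar markers 3 were higher (34.2 to 85.8 CPM, then 189 to 677 CPM), with Ptf1a at 0 at 4 weeks. The 5 Schwann cell markers summed to 14.2 to 16.0 CPM and 16.6 to 19.3 CPM, with Sox10 higher, and the 8 leukocyte markers to 7.68 to 12.3 CPM and 13.9 to 19.8 CPM, with Cd68 higher and Cd3e and Cd4 at 0 at 4 weeks. Of 8 β-cell markers Ins1 and Ins2 were higher and Nkx6-1 lower, with sums of 2877 to 4006 CPM and 4926 to 5840.0 CPM. The part of these cells in the falls was not tested, and the summed alpha cell list, mostly Gcg, had 110986 to 125549 CPM at 4 weeks and 117555 to 141434 CPM at 8 weeks.

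In the β samples, in which Irx1, Irx2, Pou3f4, Ttr and Gc fell, the sum of the 9 alpha cell markers went from 8110.4 to 11748 CPM at 4 weeks to 4749 to 5606 CPM at 8 weeks. Over the same samples the 8 β-cell markers went from 46322 to 81304 CPM to 106957 to 112521 CPM, with Ins1, Ins2, Pdx1, Mafa and Slc2a2 higher. Acinar markers were also higher for 5 of 8 (88.8 to 168 CPM, then 403 to 844 CPM). The duct sum, mostly Krt7 and Spp1, was 862 to 1185 CPM, then 1679 to 1799.7 CPM, with Spp1 alone past the threshold. Endothelial sums did not exceed 9.59 CPM and mesenchymal sums did not exceed 41.6 CPM in any β sample. The leukocyte sum was 50.9 to 53.3 CPM at 4 weeks and 68.5 to 77.4 CPM at 8 weeks, with Cd68 higher (log2 0.51, SE 0.12, adjusted p = 0.0136). The delta cell list had 400.1 to 889 CPM at 4 weeks and 816 to 906 CPM at 8 weeks. The part of residual alpha cells and of the β-cell transcripts in these falls was not tested.

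By their whole pattern over the 12 samples, the 8 genes were not alike. Likeness was taken as the root mean square difference of log2 CPM after each gene had been centred on its own mean, over 10175 genes with a mean log2 CPM of at least 3. This is a description, dominated by the contrast of the 2 fractions that all samples share. Nearest to each other were Gc and Fev (0.25), Irx2 and Ttr (0.34) and Ttr and Hhex (0.39), and farthest apart were Irx1 and Fev (1.46). Irx1 and Irx2, next to each other on the chromosome, differed by 0.62, more than Irx1 and Pou3f4 at 0.53.

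Among all genes, the nearest to Irx1 were Vwde, Egr2 and Ppy at 0.45 each. Nearest to Irx2 were Atf3 (0.24), Etv1 (0.25) and Sgce (0.26), and nearest to Pou3f4 were Vwde (0.43), Irx1 (0.53) and Gcg (0.55). Irx1 and Pou3f4 thus had no neighbour as close as the other genes had. Ttr lay nearest to Rcn3 (0.15), Eef1a2 (0.16) and Rbp4 (0.21), Gc to Plin3 (0.13), Cd24a and Dbpht2 (0.19 each), and Hhex to Tspan8 (0.20), Rbp4 (0.28) and Id3 (0.29). Fev lay nearest to Klhdc8b (0.20), Ffar4 (0.24) and Gc (0.25), and Slc38a5 to Klhdc8b (0.28), Nefm (0.30) and Klf4 (0.33). Rbp4 and Ffar4 were also on the delta cell list, Etv1 and Gcg on the alpha cell list.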

How the data were processed

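RNA was sequenced as reversely stranded, single-end reads in 12 samples, 4 groups of 3. According to the methods, adapters were removed with fastp, kallisto placed the reads on Ensembl mouse transcripts (GRCm38) and tximport gave gene totals; versions of these programs are not given in the sources used here. The authors deposited estimated counts per gene, unscaled and unfiltered, with 13755106 to 27040652 per sample and 14% to 19.3% of values not whole. Such counts can be divided among near-identical transcripts.

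Identifiers were matched to symbols and coordinates in GENCODE M21 on GRCm38 (52002 of 52962). Counts were rounded, genes above 1 CPM in at least 3 samples were kept (15598), and libraries were scaled by TMM in edgeR 4.0.16. limma-voom (limma 3.58.1, R 4.3.3) was fitted to all 12 samples with a mean for each group and no covariates, two-sided, with Benjamini-Hochberg adjustment over all tested genes and a threshold of 0.05. CPM values are TMM-scaled. Where n is 3, p-values measure only the spread between these pools. As alternatives the fit was replaced by the quasi-likelihood test of edgeR or by DESeq2 1.42.0, scaling by DESeq2's size factors or total counts, and further runs used 2 other filters, quality weights, only the groups compared, removal of hormone and mitochondrial genes, a replicate block, omission of each sample, and omission of both 4-week samples numbered 3. The fit was tested on simulated data.

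The 8 genes, the lists and the tests were chosen with earlier results of these data known. All 8 genes are described; from each list, its hormone, its transcription factors and members past the threshold could be named, and for likeness the 3 nearest genes. Promoters are from RefSeq on GRCm38.p6. Some listed genes and 1 motif are not reported here.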

Additional observations from a re-analysis of the deposited data

Results flagged for a closer look

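The age change of Gcg, the glucagon gene beside which the 8 genes were read, differed between the fractions. The log2 change of β-cells minus that of non-β-cells was -1.97 by the interaction term of limma-voom (adjusted p = 0.00173). None of the 8 genes passed this test in the main limma-voom fit, while up to 3 did in the other settings given below.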

How the results depend on the processing

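All 8 genes were lower in β-cells at both ages in every alternative run. The age calls of Irx1, Irx2 and Fev in non-β-cells and of Irx1, Irx2, Ttr and Gc in β-cells were kept in all 23 alternatives. Between 3 and 4 of the 8 passed with age in non-β-cells and 4 to 5 in β-cells, as Slc38a5 lost its call in 7 alternatives and Pou3f4 in 8. In the interaction, 0 of the 8 passed in the main limma-voom fit, but 2 by edgeR and 3 by DESeq2. By limma-voom in other settings, 1 passed with total counts as scaling, 3 with quality weights and 3 with the replicate block. The number was 2 without both 4-week samples numbered 3, and 0 to 2 with 1 sample left out. Pou3f4 and Ttr passed without the 4-week β sample numbered 3. Ttr passed without the 4-week non-β sample numbered 3, and Irx1 without the 8-week non-β sample numbered 1. The cause was not tested.

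Same-numbered samples did not deviate together throughout (correlations of deviations across genes 0.08, 0.13 and 0.31 between fractions at 4 weeks and 0.01 to 0.05 at 8 weeks), and the 4-week β sample numbered 1 correlated better with the non-β sample numbered 2 (0.10). Different-numbered samples had -0.23 to 0.11 between fractions at 4 weeks and -0.03 to 0.01 at 8 weeks. The labels do not say whether equal numbers mark a shared preparation, and these values do not settle it. The main fit did not read the numbers as pairs, and the replicate block did, in 2 ways. For the interaction it paired same-numbered β and non-β samples of the same age. For the age comparisons it paired same-numbered 4-week and 8-week samples of the same fraction, for which the labels give no ground. With the block across fractions, Irx1 (-1.47, adjusted p = 0.0303), Pou3f4 (-2.34, adjusted p = 0.047) and Ttr (adjusted p = 0.00106) passed in the interaction. With the block across ages, Pou3f4 no longer passed with age in β-cells (adjusted p = 0.0607).

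Signs turned for changes that passed the threshold in no alternative. Fev with age in β-cells was 0.02 with quality weights and 0.00 without both 4-week samples numbered 3, and -0.27 to 0.00 with 1 sample left out. Slc38a5 in the interaction was -0.00 with quality weights, Hhex with age in non-β-cells was -0.05 to 0.15 with 1 sample left out, and Pax6 there was -0.00 with total counts. Irx3 with age in β-cells, measured in few counts, was 0.34 by edgeR, 0.40 by DESeq2, 0.08 with no filter, 1.04 with quality weights, 0.12 with the block, 1.24 without both 4-week samples numbered 3, and -1.46 to 1.24 with 1 sample left out. Depth limited the β-fraction values of Pou3f4, Irx1 and Hhex.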
